A study of Mus musculus with 8 samples.

Results

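The genes described here lie around Kbtbd12 on mouse chromosome 6. Kbtbd12 encodes a kelch protein that also has a BTB domain, and with Acot2, the knocked-out gene, it was 1 of the 2 genes called between the genotypes of the study. The 54 members were given by name as genes between about 83 and 93 Mb (GRCm38), within 5 Mb of Kbtbd12, and were kept where at least 10 normalized reads were present in at least 4 libraries. All 54 were in the deposited table of 54091 genes and all passed, so that they are 54 of the 13638 genes tested. The members were chosen by position, around a centre that was itself selected on its mKO against control difference in these same libraries. The differences of the members between genotypes are therefore given as a description, with no test of the list.

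Whole RNA was sequenced from the white part of the quadriceps, a thigh muscle made mostly of fast glycolytic fibres. All 8 animals were male, aged 11-14 wks, fed a Purina chow diet and sampled in the morning. The control group was 4 animals of genotype Loxp/Loxp, for which the labels name no Cre. The mKO group was 4 animals labelled CKM Cre, in which Acot2, a mitochondrial acyl-CoA thioesterase, is knocked out in muscle. A Cre driven by Ckm, the muscle creatine kinase gene, acts in muscle fibres, so the other cells of the tissue piece can keep Acot2. Each sample title ends in a number of its own, read here as that of the animal. The numbers fall into 4 adjacent pairs, each of a control and an mKO animal. Nothing in the labels states a pairing or ties animals to litters or days.

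Neighbouring genes on a chromosome can share enhancers and can lie in 1 domain of chromatin folding, within which a regulatory element reaches some promoters and passes over others. Genes that lie close together on a chromosome also tend to be inherited together. Kelch proteins with a BTB domain are known mainly as substrate adaptors of cullin ubiquitin ligases, and several of them act in muscle. Most of the genes around Kbtbd12 encode general machinery: coat and Rab proteins of membrane traffic, splicing and translation factors, a subunit of the replicative helicase, and transporters.

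Promoter sequences are shown for Kbtbd12 and for the members next to it that the results turn on, so that the start of the gene that differed can be read beside those of its neighbours. They are the bases 250 to 51 before the RefSeq start (GRCm38.p6), 5′ to 3′ on the strand of the gene, with the E-box letters CANNTG in capitals. The windows are chr6:88465159-88465358 on the plus strand for Ruvbl1, chr6:88627480-88627679 on the minus strand for Kbtbd12, chr6:88841986-88842185 on the minus strand for Abtb1 and chr6:88898831-88899030 on the minus strand for Mcm2. These windows hold no GENCODE exon. The start used for Kbtbd12 lies inside the span GENCODE gives the gene.
Ruvbl1: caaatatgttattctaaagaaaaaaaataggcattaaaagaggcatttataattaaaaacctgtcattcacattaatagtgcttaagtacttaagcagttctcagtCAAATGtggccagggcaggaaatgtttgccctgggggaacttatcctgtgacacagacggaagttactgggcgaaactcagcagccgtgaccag
Kbtbd12: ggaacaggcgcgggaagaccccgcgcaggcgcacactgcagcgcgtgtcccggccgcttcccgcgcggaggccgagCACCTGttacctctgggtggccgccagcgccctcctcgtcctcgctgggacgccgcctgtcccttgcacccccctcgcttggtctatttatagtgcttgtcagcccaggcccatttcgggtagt
Abtb1: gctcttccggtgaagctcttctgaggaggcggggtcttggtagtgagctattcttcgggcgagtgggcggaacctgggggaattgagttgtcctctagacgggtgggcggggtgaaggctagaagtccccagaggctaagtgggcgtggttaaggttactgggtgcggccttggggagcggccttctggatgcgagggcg
Mcm2: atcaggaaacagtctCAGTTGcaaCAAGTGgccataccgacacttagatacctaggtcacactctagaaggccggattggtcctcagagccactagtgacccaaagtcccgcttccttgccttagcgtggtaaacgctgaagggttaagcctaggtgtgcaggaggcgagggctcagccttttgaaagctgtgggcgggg
E-boxes are the letters that myogenic factors such as MyoD bind. The letters CANNTG read the same on both strands. They occurred once for Kbtbd12, once for Ruvbl1, in 2 places for Mcm2 and in no place for Abtb1. The share of all 32851 RefSeq promoter windows of this length that held them was 59.0%. The 49 members with an entry have 62 windows, of which 32 (51.6%) held them. The letters TTTNNCGC, a form of the sites that E2F factors bind, were searched on both strands because Mcm2 is a replication gene. They were in 3.27% of all windows, in 3 of the 62 member windows (4.84%), and in none of the 4 windows shown. The G and C content was 69.0% for Kbtbd12, 62.0% for Abtb1, 54.5% for Mcm2 and 40.0% for Ruvbl1, beside a median of 51.5% over all windows. A match is a description of letters only.

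Reads recovered from the deposited values came to 30415373 to 48834273 per library. Acot2, the targeted gene, had 213, 149, 251 and 240.2 normalized reads in controls 1 to 4 and 43.8, 42.8, 53.7 and 48.9 in mKO 1 to 4, a difference of -2.13 (SE 0.18) on the log2 scale (limma, adjusted p = 0.00096). Its groups did not overlap, and the labels of all 8 libraries were matched by it. The summed fast glycolytic fibre markers were 4648800 to 5942052 normalized reads per library, beside 583 to 15004 for the slow fibre markers. The summed adipocyte markers were 24107 in control 2 and 10354 in control 3, and 2824 to 4464 in the other libraries. Slow fibre markers summed to 5367 in mKO 3 and 15004 in mKO 4, and to 583 to 1367 in the other libraries. The oxidative fast fibre markers summed to 12390, 2403, 88591 and 63154 in controls 1 to 4. In mKO 1 to 4 they summed to 8287.5, 11689, 61558 and 65596. Replicates 3 and 4 of both groups were thus the high ones, and the part of these markers in any member's value was not tested. The lymphatic endothelium markers summed to 415 to 528 in controls and 631 to 779 in mKO, with Ccl21a at 0 in all libraries, and their part in any member's value was not tested. In bulk tissue, fewer cells of a type and less RNA per cell cannot be told apart.

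Kbtbd12 (chr6:88545114-88637950, minus strand) stood at 1722, 1839.9, 1729.7 and 1715 normalized reads in controls 1 to 4 and at 5466, 5292, 5380.5 and 4662 in mKO 1 to 4. Every mKO library was far above every control library, and the group means were 1752 ± 59.1 in controls and 5200.2 ± 366 in mKO (SD, n = 4 each). The ratio of the means was 2.97, and the difference was 1.57 on the log2 scale (SE 0.063, 95% interval 1.43 to 1.71). This is the value that placed the centre.

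All 54 members differed less than Kbtbd12 did, and nothing is read from that, since Kbtbd12 was selected on its difference. The 54 differences, mKO minus control on the log2 scale, ran from -0.54 for Aldh1l1 to 0.38 for Lsm3, with 28 above 0 and 26 below. Their median was 0.0029, beside 0.0049 over all 13638 tested genes and -0.0011 over the 635 other tested genes of chromosome 6. The members within 0.1 of 0 numbered 31, or 57.4%, and the same share of all tested genes was 57.4%. The median size of a difference, sign left aside, was 0.074 in the members and 0.082 in all tested genes. The median standard error of a difference was 0.095 in the members, 0.12 in all tested genes and 0.18 in the other 40 tested genes within 5 Mb.

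The 95% intervals show what size of difference 4 against 4 libraries leave possible. For 53 of the 54 members the whole interval lay within 1 of 0, and for 39 it lay within 0.5. These are 98.1% and 72.2% of the members, beside 85.6% and 64.3% of all tested genes. Such shares depend on the standard errors, which were smaller in the members, as well as on the differences. The member with an interval past 1 was Rab43, at -1.31 to 0.75, the member with the lowest level. The highest upper bound was 0.95, for Cyp26b1, and the lower bound of Kbtbd12 was 1.43. Upper bounds under that value were found in all 54 members and in 97.3% of all tested genes, and since Kbtbd12 was selected on this difference nothing is read from it.

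**Figure D1:**
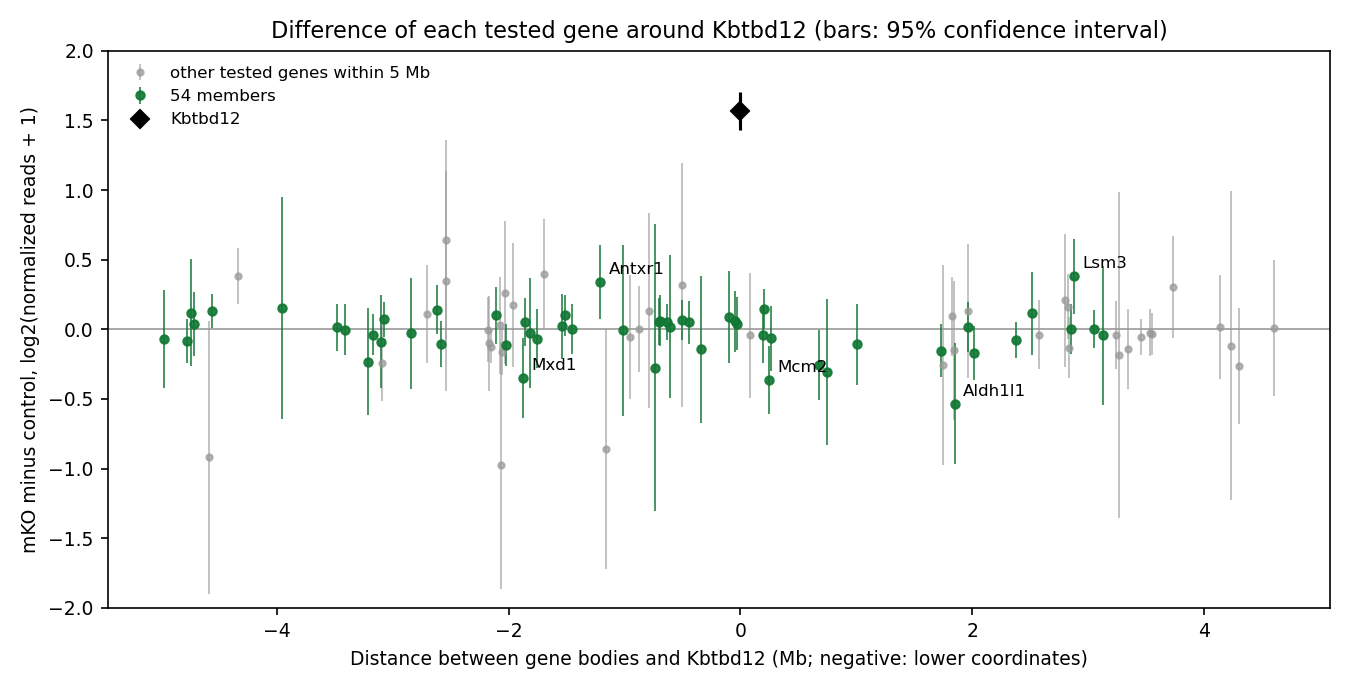
Difference between mKO and control (log2 of normalized reads + 1, vertical axis) of each tested gene within 5 Mb of Kbtbd12 against its distance from Kbtbd12 (Mb, negative for lower coordinates, horizontal axis), with 95% confidence intervals from limma (n = 4 libraries per group). Kbtbd12 stands at 1.57 at distance 0, and the 54 members (green) lie between -0.54 and 0.38 at every distance.

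By limma with Benjamini-Hochberg adjustment, none of the 54 members passed an adjusted p of 0.05, where 0.0147% of all tested genes did (2 of 13638). At an unadjusted p under 0.05 there were 8 of the 54 members, 4 higher and 4 lower in mKO. Past that mark were 397 of all 13638 tested genes (2.91%). The share was larger in the members, and the list was not tested. Limma-voom on the recovered reads called 0 members after adjustment and 7 at an unadjusted p under 0.05, where 2.66% of all tested genes were past that mark. The 8 were Mcm2, Lsm3, Antxr1, Aldh1l1, Mxd1, Zfp638, Podxl2 and Plxna1, each with an adjusted p of 0.9995 by limma. Just outside this mark lay Iqsec1 at an unadjusted p of 0.076 and Tprkb at 0.11. In 3 of the 54 members (Antxr1, Podxl2 and Lsm3) every mKO library was above every control library, where 0.924% of all tested genes were so placed. In 1 of the 54 members (Mcm2) every mKO library was below every control library, where 0.997% of all tested genes were.

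The nearest members on the low-coordinate side of Kbtbd12 were Sec61a1, Ruvbl1 and Eefsec, whose ends lie 0.026, 0.048 and 0.099 Mb from it. Sec61a1 (chr6:88503579-88518905), the pore subunit of the endoplasmic reticulum translocon, had 584, 671, 605 and 610.4 normalized reads in controls 1 to 4 and 619.5, 576, 623 and 729.5 in mKO 1 to 4. Ruvbl1 (chr6:88465409-88497572), an ATPase of chromatin remodelling complexes, had 468, 383, 469.9 and 465 in controls and 504, 445, 499 and 409 in mKO. Eefsec (chr6:88257334-88446539), the elongation factor for selenocysteine, had 137, 142, 100.3 and 137 in controls and 118, 144, 154 and 130.3 in mKO. In all 3 genes the groups overlapped. Their differences were 0.041 (SE 0.086), 0.056 (SE 0.10) and 0.087 (SE 0.15) on the log2 scale, none larger than its SE.

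On the high-coordinate side the nearest members were Abtb1, Podxl2 and Mcm2, at 0.198, 0.205 and 0.246 Mb. Abtb1 (chr6:88835914-88841984), like Kbtbd12 a protein with BTB domains, had 577, 495, 562 and 525 normalized reads in controls and 584, 485, 558 and 476 in mKO, and its groups overlapped. Its difference was -0.040 (SE 0.091). Podxl2 (chr6:88842558-88875044), which encodes the sialomucin endoglycan, had 1189, 1218, 1349 and 1371 in controls and 1449.6, 1394, 1439.8 and 1379.8 in mKO. Its 4 mKO libraries stood just above the highest control, and the difference was 0.15 (SE 0.065). Mcm2 (chr6:88883474-88898780), a subunit of the replicative helicase, had 231, 259, 298 and 293 in controls and 228, 208, 202 and 196 in mKO, and the lowest control (231) stood just above the highest mKO library (228). Its difference of -0.37 (SE 0.11) had the smallest unadjusted p of the members, 0.0069, with an adjusted p of 0.9995 by limma. The differences of Podxl2 and Mcm2, neighbours on the same strand, had opposite signs. Mgll, the monoglyceride lipase gene, is no member but lies between Kbtbd12 and Abtb1, at 0.086 Mb, and was picked here after its values were seen. It had 614, 1373, 935 and 703 in controls and 754, 801, 828 and 979.6 in mKO, highest in control 2 and with overlapping groups, and a difference of -0.045 (SE 0.21). That difference was 0.18 without control 2 and -0.21 without control 1.

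**Figure D2:**
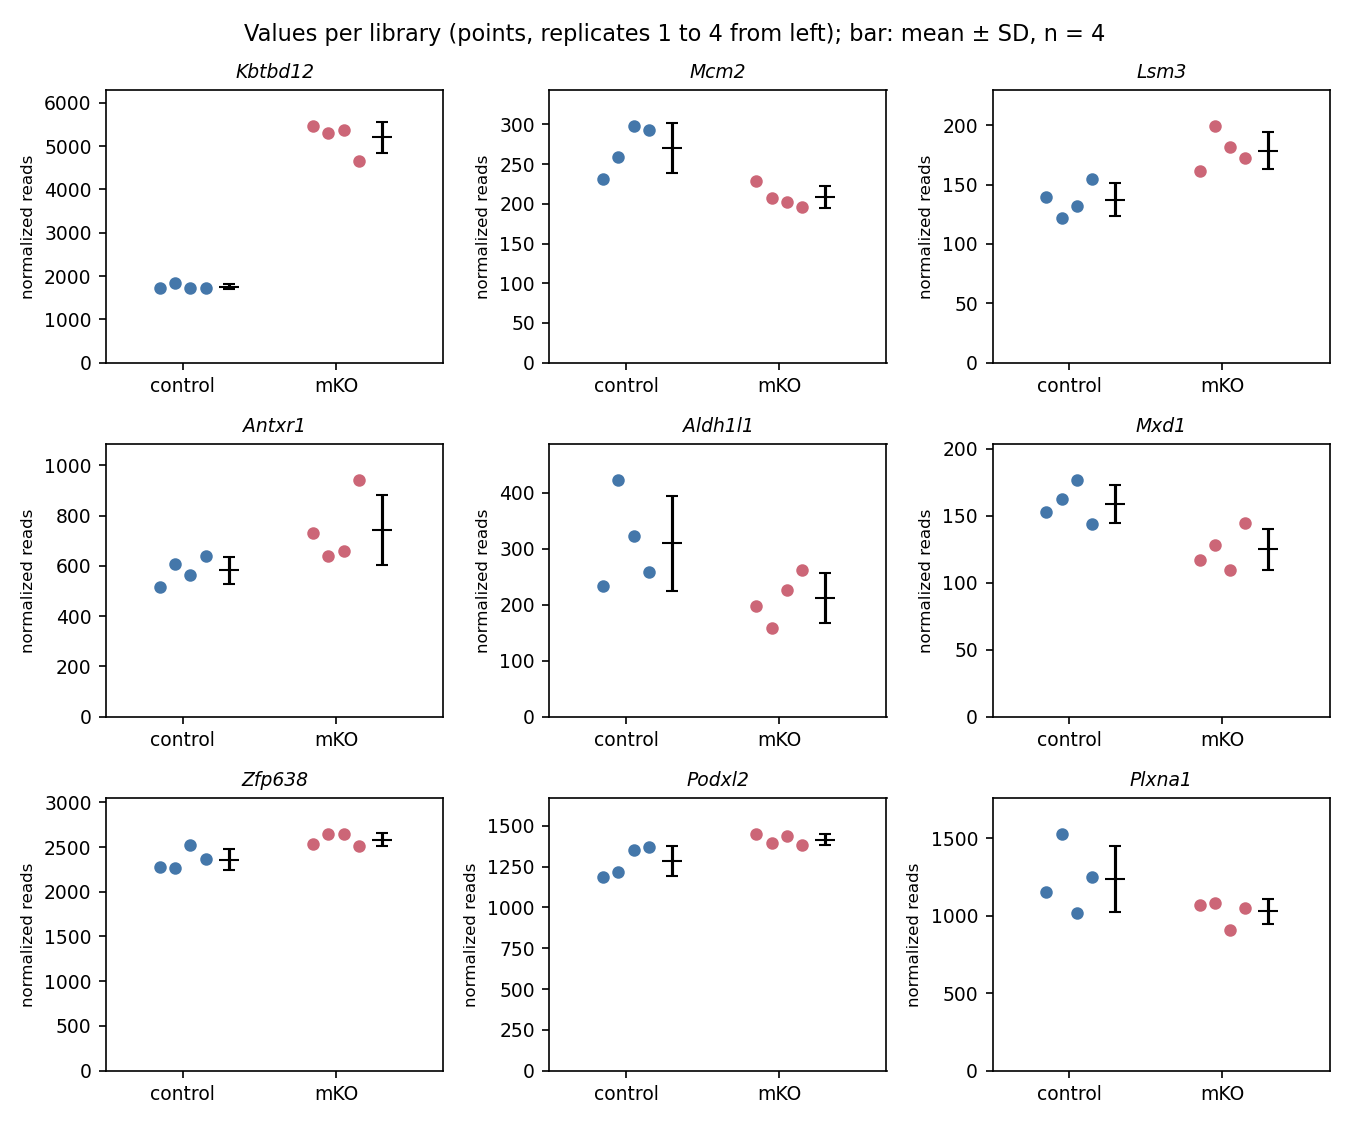
Normalized reads (vertical axes, starting at 0) of Kbtbd12 and of the 8 members with the smallest unadjusted p in each control (blue) and mKO (red) library, replicates 1 to 4 from left, with bars for the mean ± SD (n = 4). The groups are wide apart in Kbtbd12 (1715 to 1840 against 4662 to 5466), nearly touch in Mcm2 (231 against 228) and overlap in Aldh1l1, Mxd1, Zfp638 and Plxna1.

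The 11 members of membrane traffic and the secretory pathway were 6 above 0 and 5 below, with a median difference of 0.014 on the log2 scale, and none was called. Rab7, the small GTPase of late endosomes and lysosomes, was the most abundant of them, with 5543, 4942, 4742 and 4662 normalized reads in controls and 5152, 5268, 5411 and 4974 in mKO. Its mKO libraries all lay within the span of the controls, and its difference was 0.068 (SE 0.065). Rpn1, a subunit of the oligosaccharyltransferase that sits beside the Sec61 pore, had 2119, 1760.4, 1837 and 1817 in controls and 1838, 1924, 2066 and 1966 in mKO, a difference of 0.052 (SE 0.070). Iqsec1, an exchange factor for Arf6, had 1719, 1954, 1789 and 2123 in controls and 1642, 1823, 1478 and 1798 in mKO. Its mKO libraries 1 and 3 were below every control, the others were not, and the difference was -0.17 (SE 0.087). Rab43, a Golgi GTPase, had few reads, with 20.1, 16.8, 21.97 and 5.41 in controls and 16.8, 8.56, 14.8 and 8.50 in mKO. Its difference of -0.28 (SE 0.47) was smaller than its error. The other members of this group were Copg1, a subunit of the COPI coat, Exoc6b, a subunit of the exocyst, Rab11fip5, a Rab11 effector, Aak1, a kinase of the clathrin adaptor, Stambp, an endosomal deubiquitinase, and Tex261. With Sec61a1 they had differences from -0.084 for Tex261 to 0.054 for Copg1.

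The 11 members of RNA binding, splicing and translation were 9 above 0 and 2 below, with a median of 0.063. The count above 0 was 7 to 9 over the alternative settings. No member of the group was called. Lsm3, a subunit of the ring that binds U6 RNA (chr6:91515928-91522625), had 139.8, 122, 132 and 155 normalized reads in controls and 162, 199, 182 and 172 in mKO. Every mKO library was above every control, and the difference was 0.38 (SE 0.12), with an unadjusted p of 0.0099. Xpc, the damage sensor of nucleotide excision repair (chr6:91489305-91515888), was picked after its values were seen and is transcribed away from Lsm3 on the other strand from a start that lies next to it. Xpc had 458, 442, 404 and 407 in controls and 456, 401, 422 and 433 in mKO, a difference of 0.0027 (SE 0.081), with overlapping groups. Zfp638, a nuclear protein that binds nucleic acids, had 2278, 2267, 2518 and 2370.0 in controls and 2532, 2646, 2641 and 2516 in mKO. The mKO libraries were higher except that mKO 4 lay level with control 3, and the difference was 0.13 (SE 0.056).

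Cnbp, a zinc finger protein that binds nucleic acids and whose human counterpart carries the repeat expansion of a form of myotonic dystrophy, had 16296, 14156, 15194 and 14549 normalized reads in controls and 15867, 16703, 17015 and 13461 in mKO. Its highest and lowest library were both mKO, and the difference was 0.063 (SE 0.082). Paip2b, a repressor of translation that binds the poly(A)-binding protein, had 3243, 2818, 4094 and 3499 in controls and 3287, 3231, 3896 and 3514 in mKO, a difference of 0.038 (SE 0.10). Pcbp1, a poly(C)-binding protein made from an intronless gene, had 1139.5, 1294, 1175 and 1202 in controls and 1154, 1186, 1028 and 1078 in mKO. It was 1 of the 2 members of the group below 0, at -0.11 (SE 0.069). The other was Dusp11, an RNA triphosphatase, at -0.10 (SE 0.076). Snrnp27, a protein of the splicing tri-snRNP, had 977, 872, 1033 and 1014 in controls and 1019, 927, 1113 and 981 in mKO, a difference of 0.052 (SE 0.079). Tprkb, of the complex that modifies transfer RNAs, Tia1, a stress granule protein, and Isy1, a splicing factor, stood at 0.14 (SE 0.081), 0.10 (SE 0.093) and 0.054 (SE 0.076).

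Of the 10 members of chromatin, transcription, replication and repair, 4 were above 0 and 6 below, with a median of -0.083, and none was called. Mcm2 is described above. The other genes of its hexamer lie elsewhere in the genome, and their differences were -0.16 (SE 0.15) for Mcm3, -0.18 (SE 0.17) for Mcm4, 0.58 (SE 0.37) for Mcm5, 0.26 (SE 0.25) for Mcm6 and -0.27 (SE 0.13) for Mcm7. They had no common sign and none was called. The summed markers of proliferating cells were 981 to 1074 normalized reads in controls and 937 to 1023 in mKO, so their ranges overlapped. Mxd1, which pairs with MAX against MYC, had 153, 162, 177 and 144 in controls and 117, 128, 109.6 and 144 in mKO. Its mKO libraries 1 to 3 were below every control and mKO 4 was just above the lowest control, for a difference of -0.35 (SE 0.13). Gata2, a transcription factor of blood progenitors and endothelium, was scattered in controls, with 76.4, 50.4, 47.8 and 91.98, and had 62.3, 47.7, 54.8 and 69.4 in mKO. Its difference was -0.14 (SE 0.24). It was -0.52 without controls 2 and 3, its own lowest controls and the libraries high in adipocyte markers. It was 0.027 without control 4, its highest library. Nup210, a membrane protein of the nuclear pore, had 2294, 2163, 2209 and 2329 in controls and 2197, 2207, 1965 and 2158 in mKO, a difference of -0.078 (SE 0.059). Zxdc, a zinc finger protein, had 583, 596, 519 and 617 in controls and 537, 529, 459 and 558 in mKO, a difference of -0.15 (SE 0.087). Both genes had overlapping groups, with 2 mKO libraries below every control in Nup210 and 1 in Zxdc. Hdac11, a histone deacetylase, Smyd5 and Hmces, which shields abasic sites in DNA, had differences of 0.12 (SE 0.14), -0.088 (SE 0.15) and 0.018 (SE 0.23).

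The 9 members of metabolism, redox and mitochondria were 4 above 0 and 5 below, with a median of -0.0020, and none was called. Aldh1l1, the 10-formyltetrahydrofolate dehydrogenase of folate metabolism (chr6:90486427-90600203), had the largest difference of all members in size. It stood at 234, 423, 323 and 259 normalized reads in controls and 198, 158, 227 and 263 in mKO. Controls 2 and 3 were the highest libraries, control 2 by far, and controls 1 and 4 lay among the mKO values. The difference was -0.54 (SE 0.20) with an unadjusted p of 0.020 and an adjusted p of 0.9995 by limma. In each pair of adjacent animal numbers the mKO library was below the control. With these pairs as a block, the unadjusted limma p was 0.00066 (SE 0.099) and the adjusted p was 0.995. The labels state no such pairing. The 9 adipocyte markers, none above 0 and none called, summed to 2888 to 24107 normalized reads in controls and 2824 to 3838 in mKO, and controls 2 and 3 were the highest there too. Their part in the difference of Aldh1l1 was not tested. Without controls 2 and 3 its difference was -0.24 (SE 0.19, unadjusted p = 0.24). Gfpt1, the rate-limiting enzyme of hexosamine synthesis, had 2335, 2458, 2372 and 2803 in controls and 2757, 2492, 2194 and 2554 in mKO, a difference of 0.0030 (SE 0.082). Spr, sepiapterin reductase, which makes tetrahydrobiopterin, had 857, 701, 862 and 790.0 in controls and 776, 786, 871 and 764 in mKO, a difference of -0.0020 (SE 0.083). In both genes the groups overlapped. Cyp26b1, which breaks down retinoic acid, varied widely in both groups, with 89.5, 44.8, 97.4 and 162 in controls and 57.2, 112, 114 and 132 in mKO, and its difference was 0.15 (SE 0.36). Of the others, the mitochondrial genes Chchd6, of the cristae organizing complex, Sfxn5, a sideroflexin, and Nfu1, an iron-sulfur cluster carrier, had -0.31 (SE 0.24), -0.23 (SE 0.17) and 0.10 (SE 0.067). Txnrd3, a thioredoxin reductase, and Nagk, the N-acetylglucosamine kinase, had -0.11 (SE 0.13) and 0.12 (SE 0.18).

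Among the 13 members of the cell surface, transport and cell shape, 5 were above 0 and 8 below, with a median of -0.026, and none was called. Antxr1, an anthrax toxin receptor that binds extracellular matrix, had 514, 609, 564 and 638 normalized reads in controls and 731, 641, 659 and 941 in mKO. The groups did not overlap, but control 4 (638) and mKO 2 (640.6) nearly met, and mKO 4 stood far above the rest. The difference was 0.34 (SE 0.12), and 0.22 without mKO 4. The 5 fibroblast markers, 4 of them above 0 and none called, summed to 43711 to 60709 normalized reads in controls and 40805 to 69753 in mKO, and mKO 4 was the highest here too. The 5 tendon markers, all above 0 and none called, summed to 6296, 5889, 7429 and 9566 in controls 1 to 4. In mKO 1 to 4 they summed to 10945, 8201, 8678 and 14540. The order of the libraries was that of Antxr1 in mKO but not in controls. Control 2 was the lowest control in the tendon markers, and control 1 was the lowest in Antxr1. The part of either list in the result was not tested. Plxna1, a semaphorin receptor, had 1155, 1528, 1017 and 1249.9 in controls and 1071, 1084, 907 and 1051 in mKO. Control 2 was far above the others, and the difference of -0.25 (SE 0.11) was -0.15 without it.

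Slc6a6, the taurine transporter, had 3722, 3503, 3298 and 3665 normalized reads in controls and 3518, 3732, 3689 and 3290.0 in mKO, a difference of 0.0040 (SE 0.063) with a 95% interval of -0.13 to 0.14. Slc41a3, of a family of magnesium transporters, had 2623, 2632, 3199 and 3022 in controls and 2966, 2569, 3036 and 3000.4 in mKO, a difference of 0.014 (SE 0.082). Cct7, a subunit of the chaperonin that folds actin and tubulin, had 2911, 2733, 2868 and 3003 in controls and 3014, 3050.3, 3166 and 2861 in mKO, with 3 mKO libraries above every control and a difference of 0.070 (SE 0.056). The members of this group with few reads were Alms1, a protein of centrosomes and cilia, Arhgap25, which switches off Rac, and Grip2, a scaffold with PDZ domains. Alms1 had 87.5, 96.2, 111 and 66.01 in controls and 97.6, 83.1, 75.4 and 92.8 in mKO, a difference of -0.029 (SE 0.18). Arhgap25 had 25.1, 41.4, 21.01 and 31.4 in controls and 22.7, 29.3, 27.4 and 36.8 in mKO, a difference of -0.0077 (SE 0.28). Grip2 had 80.5, 83.9, 104 and 147 in controls and 115, 95.4, 70.8 and 118 in mKO, a difference of -0.044 (SE 0.23). In all 3 the SE was larger than the difference. The annexin Anxa4, Gmcl1 and Tpra1 had differences of -0.067 (SE 0.10), -0.026 (SE 0.18) and -0.066 (SE 0.11).

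Levels of the members differed widely. In normalized reads per kb of exon, averaged over the 8 libraries, they ran from 2.56 for Rab43 to 5074 for Cnbp, a 1985-fold span, within the 0.278 to 1725895 per kb of all tested genes with a length. The median was 78.4 per kb, beside 71.6 per kb over those genes, and 29 of the 54 were above the 50th percentile. The 4 members in the top 10% were Cnbp, Rab7 at 1949, Slc41a3 at 989.7 and Pcbp1 at 632 per kb. The 3 in the bottom 10% were Rab43, Alms1 at 4.37 and Arhgap25 at 6.63 per kb. Rab43 shares 75.4% of its exon bases with another gene, so its level, the low end of the span, is uncertain. Kbtbd12 itself had 187 per kb in controls and 554 per kb in mKO. In controls 15 members were above Kbtbd12, and in mKO 4 were. The members were 23 on the plus and 31 on the minus strand.

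**Figure D3:**
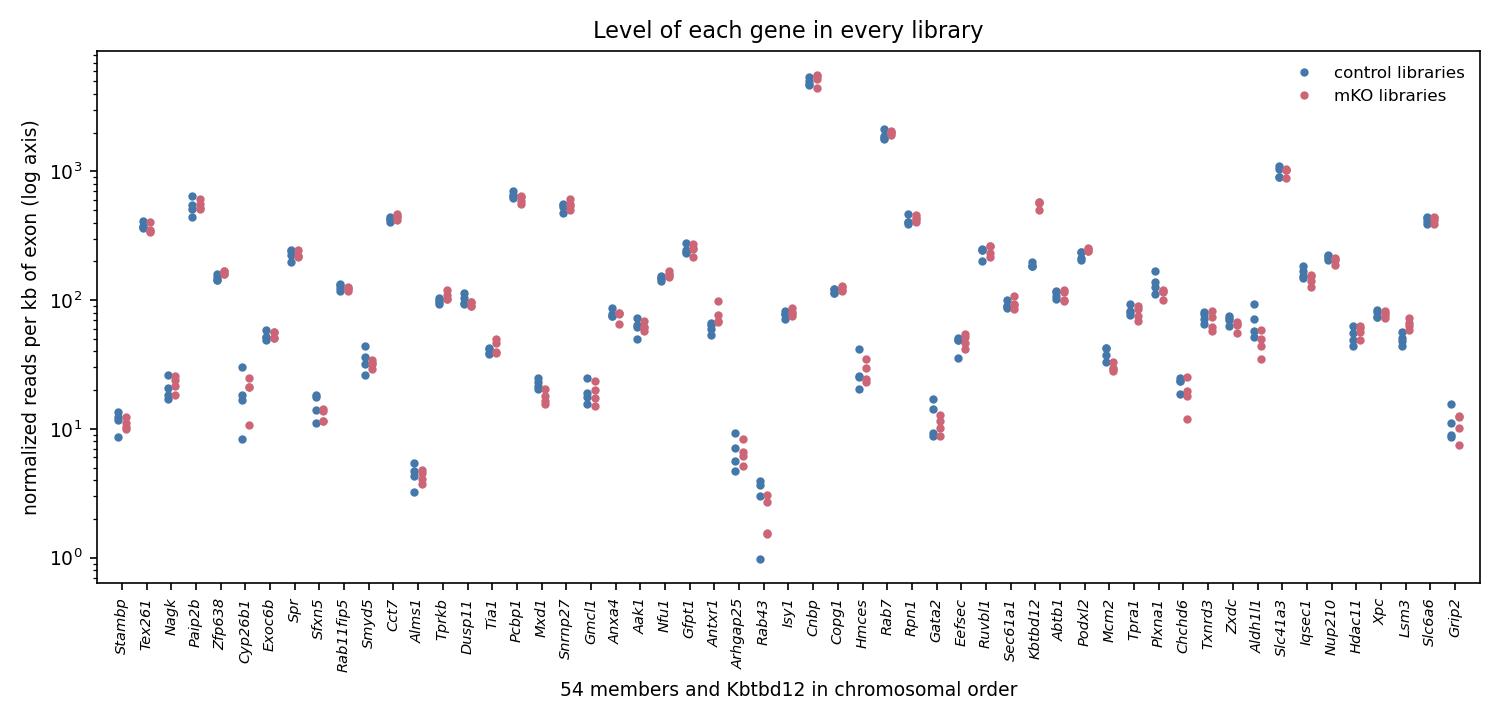
Normalized reads per kb of exon (log axis) of the 54 members and Kbtbd12 in chromosomal order, each point 1 library (4 control in blue, 4 mKO in red). The blue and red points of the members lie side by side, from 2.56 on average for Rab43 to 5074 for Cnbp, and stand apart for Kbtbd12, at 187 on average in controls and 554 in mKO.

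The spread between animals of 1 group was small for most members. The SD over libraries on the log2 scale, with the group means taken off, had a median of 0.14 in the members and 0.18 in all tested genes, and it was below the latter in 33 of the 54. The 2 members in the top 10% of variable genes were Rab43 (0.69) and Cyp26b1 (0.65), followed by Grip2 (0.37) and Gata2 (0.36). These genes have few reads, between 14.1 and 102 on average. Control 2 was the lowest library for 13 members and the highest for 9, and control 3 was the highest for 10 and the lowest for 6. No library was at the top or the bottom for most of the members. The median deviation of the members from their means over all 8 libraries lay between -0.032 (mKO 2) and 0.062 (mKO 3) on the log2 scale. Here the group means were not taken off, so the deviation includes any difference between the groups.

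When each library was left out in turn, no member was called by limma in any of the 8 fits. The median difference over the members moved between -0.019 without control 3 and 0.027 without control 4. The count at an unadjusted p under 0.05 was 8 with all libraries, 4 without control 2, without mKO 1 or without mKO 3, and 5 without mKO 2. The share of all tested genes past that mark was 1.90%, 2.90%, 2.12% and 3.00% in those 4 fits. The count was 2 (Antxr1 and Plxna1) without both controls 2 and 3, where the share was 2.32%, and 4 without both mKO 3 and 4, where it was 3.15%. Of the 54 members 31 kept the sign of their difference in all 8 fits, and so did all of the 8 named above. Mcm2 and Lsm3 had an unadjusted p under 0.05 in each of the 8 fits that left out 1 library. Without controls 2 and 3, the unadjusted limma p was 0.051 for Mcm2 and 0.10 for Lsm3, and without mKO 3 and 4 it was 0.060 and 0.042. The widest ranges over the fits were those of Rab43 and Cyp26b1. Cyp26b1 ran from -0.17 without control 2 to 0.44 without control 4, and Rab43 ran from -0.70 without control 4 to -0.083 without control 3. Kbtbd12 was between 1.54 and 1.62 in these fits.

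**Figure D4:**
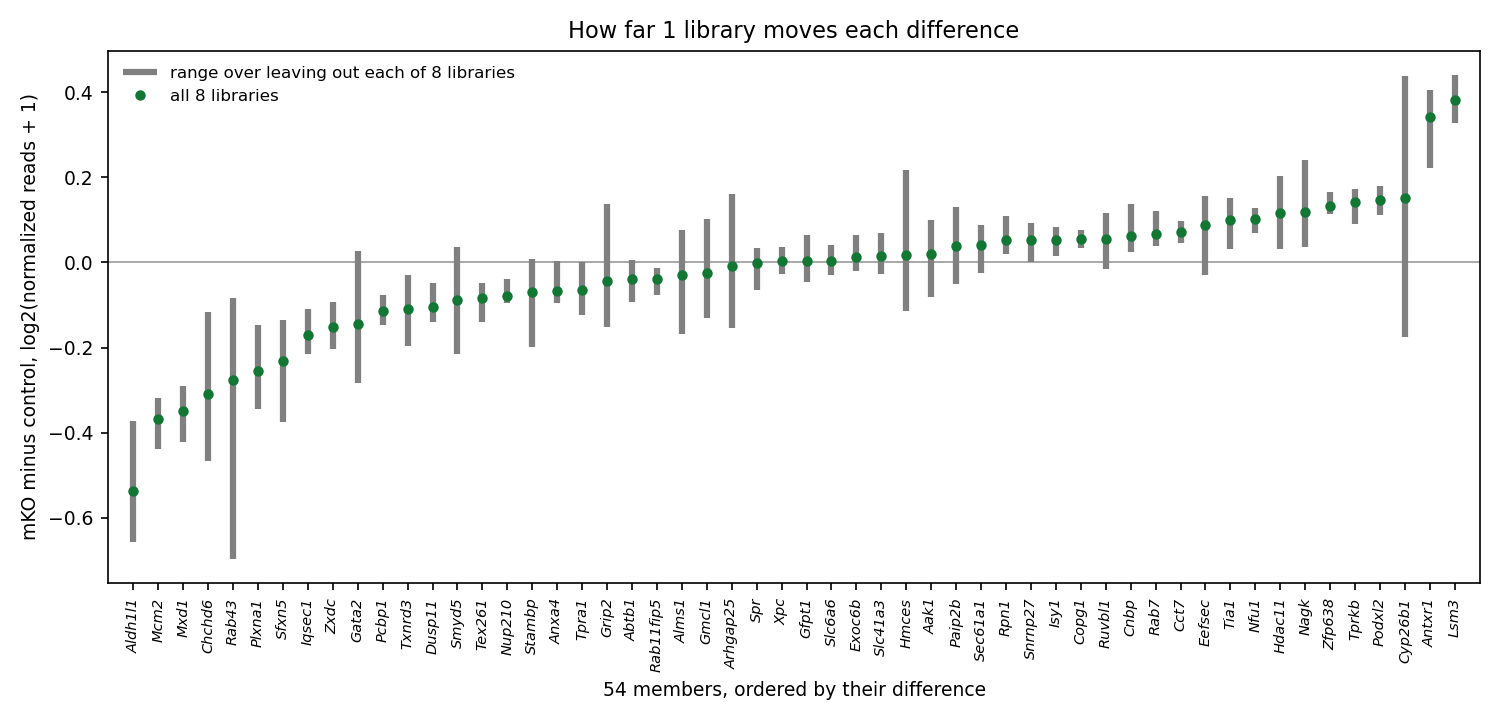
Difference between mKO and control (log2 of normalized reads + 1, vertical axis) of the 54 members in order of size, with all 8 libraries (points) and the range over the 8 fits that each leave out 1 library (bars). The bars of Aldh1l1, Mcm2, Mxd1, Antxr1 and Lsm3 keep clear of 0, while those of Cyp26b1 and Gata2 cross it.

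The median difference neither rose nor fell steadily with distance to Kbtbd12. The 17 members up to 1 Mb away had a median of 0.041 on the log2 scale with 10 above 0, the 17 at 1 to 2.5 Mb -0.026 with 7 above 0, and the 20 farther away 0.0034 with 11 above 0. On the low-coordinate side, 22 of 37 members were above 0 with a median of 0.020. On the high-coordinate side, 6 of 17 were, with a median of -0.066. Over the alternative settings the low side had 18 to 24 above 0 and a median of -0.00047 to 0.036, and the high side 3 to 7 above 0 and a median of -0.12 to -0.030. The lowest values of the low side came without mKO 3 and 4, and the difference between the sides was not tested.

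The 54 members are not all genes of the window. A further 40 genes within 5 Mb of Kbtbd12 passed the filter, 29 of them among the members and 11 beyond the last one. Their median difference was -0.028, and none was called by limma. At an unadjusted p under 0.05 there were 4 of the 40, where 2.91% of all tested genes were past that mark. Every mKO library was above every control in 2 (Dysf and 2610306M01Rik), where 0.924% of all tested genes were so placed. In 3 (Pradc1, Pcyox1 and Gkn3) every mKO library was below every control, where 0.997% of all tested genes were. Dysf, dysferlin, a protein of membrane repair in muscle (chr6:84008590-84211060), had 3072, 3315, 2476 and 3169.7 normalized reads in controls and 4009, 4269, 3672 and 3668 in mKO. Every mKO library was above every control, and the difference was 0.38 (SE 0.092) with an unadjusted p of 0.0015, at 4.33 Mb from Kbtbd12. Pcyox1, prenylcysteine oxidase, had 2199.6, 2253, 2266 and 2227 in controls and 2178, 1974, 1989 and 2076 in mKO, every mKO library below every control, and a difference of -0.12 (SE 0.054). The noncoding genes A430078I02Rik and 2610306M01Rik had few reads and differences of -0.97 (SE 0.40) and 0.39 (SE 0.18).

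Some values rest on shared sequence. By GENCODE, 25 of the 54 members share exon bases with another gene, 6 of them on the same strand, and the strand setting of the authors' counting is not stated. Rab43 shares 75.4% of its exon bases with Gm45140 on the same strand, which had 0 to 4.33 normalized reads, so the values of Rab43 are uncertain. Podxl2 shares 19.1% with Gm15612 on the other strand, at 0 to 5.05 normalized reads. Aldh1l1 shares 11.0% with the antisense gene Gm15756, which had 44.9 to 77.9 normalized reads in the libraries. Mcm2 shares none, and Lsm3 shares 6.32% with AC161456.1, which was at 0 in all libraries.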

How the data were processed

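RNA from the white quadriceps of 8 mice, 4 per group, was made into stranded libraries, per the labels' protocols. Per the submitters' processing notes, FastQC, cutadapt, STAR, HTSeq, DESeq2 and GRCm38 were used, in roles and versions that the notes as held here do not state. The annotation and strand setting of the counting were not given in the sources used here. As for the unit, the values the authors deposited are log2 of x + 1, where x, called normalized reads here, is a count of reads scaled by a constant of its library. The values themselves show it: below 1000 normalized reads, 100% lay within 0.1 of a whole multiple of the smallest value. The count test listed for recovered reads was limma-voom. A low gene carries a large counting error, and the pseudocount of 1 understates its change.

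The groups were compared with limma 3.58.1 (R 4.3.3, variance trend) on the log2 values of 13638 genes, those that reached 10 normalized reads in 4 or more libraries. Benjamini-Hochberg adjustment ran over all of them, 0.05 was the threshold, and intervals are at 95% from limma's moderated errors. Each library is read as 1 animal from the number in its title. The p-values set a difference against an error taken from the spread between libraries within groups. Positions and exon lengths came from GENCODE M21 (GRCm38) by symbol, which matched 13202 of the tested genes and all 54 members, and promoters from RefSeq (GRCm38.p6). The script was tested on simulated data. Adjacent animal numbers were used as a block in an alternative.

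The members, roles and marker lists were chosen with earlier results of these data known. With values in every library, the rule named Kbtbd12, the 8 members with the smallest unadjusted p, the 3 nearest on either side, the 4 highest and 4 lowest per kb, the 4 most variable, up to 2 further members per role with the highest mean, and other genes of the window with an unadjusted p under 0.05. The other members are given by their difference alone. Xpc and Mgll were added after their values were seen.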

Additional observations from a re-analysis of the deposited data

Results flagged for a closer look

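In 4 of 74 sets of 4 libraries (37 named genes, each in 2 groups) 1 library stood apart from the other 3 by Dixon's test at its 95% critical value. Chance flags about 1 in 20 such sets. Ruvbl1 was 383 normalized reads in control 2 and 465 to 469.9 in the other controls. Eefsec was 100.3 in control 3 and 137 to 142 in the other controls. Slc41a3 was 2569 in mKO 2 and 2966 to 3036 in the other mKO libraries. Kbtbd12 was 1839.9 in control 2 and 1715 to 1729.7 in the other controls, a gap that is small beside the mKO values of 4662 and above. These are 4 different genes, and control 2 is the library in 2 of them.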

How the results depend on the processing

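The number of members called by limma was 0 under all 19 alternatives, limma-voom among them. The median difference over the members was between -0.019 and 0.027 when 1 library was left out in turn. Under the other settings it was between -0.019 (without mKO replicates 3 and 4) and 0.014 (upper-quartile scaling), so it moved across 0. The members' median deviation had an SD of 0.032 between libraries, group means taken off. That SD is of single libraries and does not measure the error of a difference between group means. The median difference was -0.0014 with quantile normalization, -0.0026 over all tested genes of the window and -0.0023 over the members within 2.5 Mb. Kbtbd12 was called in all 19, at 1.54 to 1.62. Members turned the sign of their difference, 12 of them without control replicate 2 and 16 without control replicates 2 and 3. Gata2 moved to -0.52 without control replicates 2 and 3. The number of members at an unadjusted p under 0.05 was 4 to 8 without 1 library, 2 without control replicates 2 and 3, 4 without mKO replicates 3 and 4 and 6 to 8 under the others, and the cause was not tested. With a replicate block of adjacent animal numbers, 0 members were called. Each block held 1 control and 1 mKO library, so the differences and their median of 0.0029 could not move. Only the errors and p-values could. The unadjusted limma p fell from 0.020 to 0.00066 in Aldh1l1, from 0.017 to 0.0050 in Antxr1 and from 0.046 to 0.015 in Plxna1. It also fell in Podxl2, and it rose in Mcm2, Lsm3, Mxd1 and Zfp638. The deviations of the paired libraries correlated at -0.083, -0.081, 0.19 and 0.15, so the numbers were not taken to pair the libraries. Members with few reads can have wide intervals: Rab43, at 14.1 normalized reads on average, had a 95% interval of -1.31 to 0.75. Rab43 shares 75.4% of its exon bases with another gene, so its low count is uncertain.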
